A study of Mus musculus with 10 samples.

Results

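The genes described here encode the ligands and receptors that steer growing axons. They were taken from the probe sets with 1 gene symbol by a pattern on that symbol, which collects the semaphorins of classes 3 to 7, plexins, neuropilins 1 and 2, A and B ephrins and their Eph receptors, Slits, Robos, netrins, Dcc and the Unc5 receptors. The pattern found 58 of 12422 probe sets, for 45 of 8251 genes. The pattern itself used no measured value, but the members were chosen with earlier results of these data known. Semaphorins made up 21 probe sets of 16 genes, Eph receptors 13 of 9 genes, ephrins 9 of 8 genes, and plexins and neuropilins 8 of 6 genes. Netrins, Dcc and Unc5 gave 4 probe sets of 3 genes (Ntn1, Dcc and Unc5c), and the Robo receptors 2 probe sets of 2 genes (Robo1 and Robo3). No probe set of a Slit ligand matched. The remaining member, Unc50, matches by spelling only: it is named after a different C. elegans gene and is not a netrin receptor, so it is counted but kept apart.

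Axon guidance rests on pairs of cues and receptors. Secreted class 3 semaphorins bind neuropilins, which signal through A-type plexins, while most transmembrane semaphorins bind plexins directly; many of these contacts collapse the growth cone. Ephrins and Eph receptors signal where cells touch, in both directions, and lay out topographic maps such as that of the retina on the midbrain. Netrin 1 attracts axons that carry Dcc and repels those that also carry Unc5 receptors, and Slit binding to Robo keeps axons from crossing the midline again. At birth many long tracts of the mouse brain are still growing and branching.

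The 10 Affymetrix arrays each hold RNA of whole brain taken at birth (P0). Mice with 39 chromosomes and 1 X (XO) were set against females with 40 chromosomes and 2 X (XX) in each of 2 crosses. XmO mice (3 arrays: 1, 2 and 7), whose X is maternal by their name, and XX_Paf females (3 arrays: 1, 2 and 3) came from the cross labelled C57BL/6J x C3H/Paf. XpO mice (2 arrays: 15 and 18), whose X is paternal, and XX_InX females (2 arrays: 1 and 19) came from the cross labelled In(X)/C3H x C57BL/6J. Both crosses join a C57BL/6J and a C3H stock, in opposite order as labelled. The labels do not say whether an array holds 1 animal or a pool, or whether arrays of a group come from separate litters. The p-values therefore measure only the spread between these samples, which may be technical. Whole brain mixes every region and cell type, and fewer cells of a type and less RNA per cell cannot be told apart. Each value is the deposited intensity of a probe set on a linear scale, so levels are compared between arrays for the same probe set and not between probe sets.

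Xist, the RNA that coats the inactive X, lay between 21.3 and 49.9 on the 5 XO arrays and between 1673 and 4082 on the 5 XX arrays, so Xist matched every label. As a background, the brightest of 9 Y-linked probe sets was taken on each array; it ranged from 33.6 to 136.6. All 12 neuronal markers (Tubb3, Map2, Snap25 and others) were above it on all 10 arrays, as were 6 of 7 radial glia and astrocyte markers. Of 9 microglia markers 6 were above it on all arrays and 3 (Aif1, Itgam and Ptprc) at or below it on all. Of 11 skeletal muscle markers 3 were above it on all arrays and 3 (Mb, Myh3 and Tnni2) at or below it on all. The summed muscle markers reached 4447 in XX_Paf (lowest array 947), against at most 1706 in any other group. The summed intensity of 5 erythroid markers differed with the cross: 11303 to 17331 on the XmO arrays and 11720 to 16983 on the XX_Paf arrays, but 5984.5 to 7493 on the XpO arrays and 4037 to 6203 on the XX_InX arrays. The sum of 8 meningeal and fibroblast markers was 11331 to 13603 in XmO, 11910 to 12758 in XX_Paf, 11930 to 16989 in XpO and 15545 to 15837 in XX_InX. The sum of 9 endothelial markers was 3182 to 3668 in XmO, 2955.5 to 3476 in XX_Paf, 3224 to 3803 in XpO and 3489 to 3779 in XX_InX, so only the XX groups did not overlap. That of the neuronal markers overlapped between all groups (67665 to 77527).

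Of the 58 probe sets 39 (67.2%) were above the background on all 10 arrays, against 56.4% of all 12422, and 5 (8.62%) were at or below it on every array, against 17.7%. All 8 plexin and neuropilin probe sets were above it throughout, as were 13 of 21 for semaphorins, 6 of 9 for ephrins and 8 of 13 for Eph receptors. The 5 that never exceeded it were Efna4, Epha2, and 1 probe set each of Sema3b, Epha7 and Ntn1; the other Epha7 and Ntn1 probe sets were above it on all arrays. A filter on mean intensity left 48 of the 58 (82.8%) for testing, for 39 of the 45 genes. The 10 left out were Efna1, Efna4, Efna5, Epha2, Sema3e, both probe sets of Sema3b, and the dimmer probe set each of Epha4, Epha7 and Ntn1. Their intensities lay between 2.20 and 141. Among the tested members the median SD over the 10 arrays was 0.25 on the log2 scale, equal to that of all 8695 tested probe sets (0.25).

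**Figure D1:**
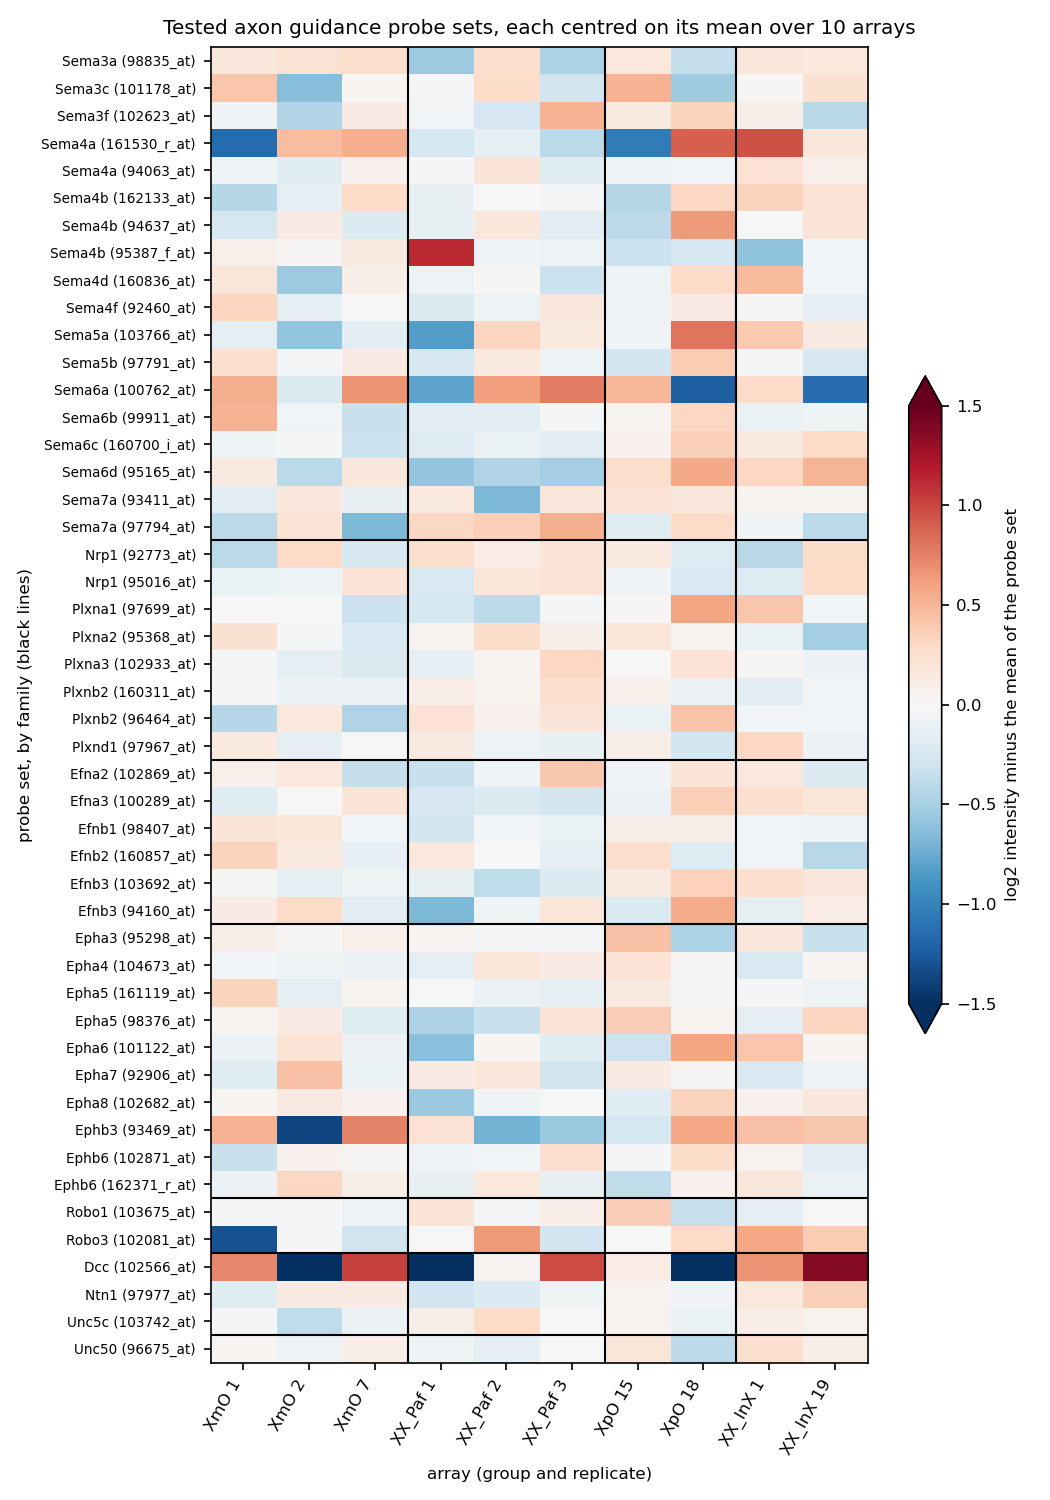
Each row is 1 of the 48 tested axon guidance probe sets and each column 1 of the 10 arrays; colour is the log2 intensity (values under 15 raised to 15) minus that row's mean, black horizontal lines part the families and vertical lines the 4 groups. Most rows are pale, while Dcc, Sema6a, Ephb3 and 1 probe set of Sema4a vary strongly between arrays of the same group, and Sema6d is low in all 3 XX_Paf arrays.

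The spread within families was uneven. Among the semaphorins above background on all arrays, Sema4a varied least on its probe set 94063_at (821 to 1080.2, median 912; SD 0.14 on the log2 scale). Sema4b varied most on probe set 95387_f_at (SD 0.45); XX_Paf 1 read 580.1 while the other 9 arrays read 175 to 293. Among the plexins, the receptors that carry the semaphorin signal into the cell, Plxnb2 was steadiest on probe set 160311_at (845 to 1128, SD 0.12) and Plxna1 least steady (344 to 680.1, SD 0.31). Among the ephrins the X-linked Efnb1 was steadiest (SD 0.14) and 1 probe set of Efnb3 least steady (779 to 1822, SD 0.33). Among their receptors Epha5 was steadiest on its brighter probe set 161119_at (602 to 840.1, SD 0.14) and Epha6 least steady (95.2 to 223, SD 0.35). Robo1, a Slit receptor, was the 1 Robo above background throughout (340.3 to 558, SD 0.19), and for the netrin system Unc5c (SD 0.17) and Ntn1 (SD 0.20) were close to each other.

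The netrin receptor Dcc had the widest range of any tested member. Its intensities were 148, 29.0 and 182 in XmO, 26.3, 92.0 and 177 in XX_Paf, 96.6 and 31.5 in XpO and 143 and 234 in XX_InX. Low and high readings occurred within XmO, XX_Paf and XpO alike, and the array-to-array SD was 1.20 on the log2 scale. Sema6a, a transmembrane semaphorin, behaved in a like way, with 176, 104 and 192 in XmO, 69.5, 183 and 205 in XX_Paf, 169.5 and 50.9 in XpO and 146 and 54.2 in XX_InX. Both were at or below background on some arrays (3 of 10 for Dcc and 2 of 10 for Sema6a), and neither separated XO from XX in both crosses.

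The remaining tested members are given by their range over the 10 arrays. The secreted semaphorin Sema3c read 87.2 to 195, and of the membrane semaphorins Sema4d read 206 to 419, Sema4f 1026 to 1473, Sema5a 50.2 to 156 and Sema5b 349 to 552. Plxnd1, the receptor of Sema3e, read 485 to 731. The ephrins Efna2 and Efnb2 read 315 to 536 and 1069 to 1797, and the Eph receptors Epha3 and Ephb3 182 to 344 and 27.5 to 119.6. Sema5a and Ephb3 were above background on 6 and 4 of the 10 arrays, and none of these genes passed in any comparison.

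On the X chromosome lie 2 members, Efnb1 (chrX:99136061-99149022, assembly GRCm38.p6) and Plxna3 (chrX:74328290-74344689). They are the members whose copy number differs between the groups. The stock of the X differs along with it. If the cross labels name the mother first, the only X of the XO mice comes from the same stock in both crosses. The XX females also carry an X from the other stock, labelled Paf or In(X). For these genes copy number and stock of the X therefore cannot be told apart, and their separate parts were not tested. Efnb1 encodes ephrin-B1, a transmembrane ligand for EphB receptors, and Plxna3 encodes plexin-A3, which works with neuropilins as a receptor for class 3 semaphorins. The 250 bases upstream of their first RefSeq start in the table are shown, at chrX:99135811-99136060 for Efnb1 and chrX:74328816-74329065 for Plxna3, both on the plus strand. The Plxna3 window lies within the gene's annotated span, which begins at an earlier position. Capitals mark the GC box GGGCGG on either strand, the short motif that Sp-family factors bind.
Efnb1: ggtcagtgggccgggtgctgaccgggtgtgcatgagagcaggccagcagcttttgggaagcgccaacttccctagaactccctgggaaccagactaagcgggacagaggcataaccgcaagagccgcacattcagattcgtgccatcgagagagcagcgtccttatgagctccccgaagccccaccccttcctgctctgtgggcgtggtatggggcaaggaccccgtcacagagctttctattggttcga
Plxna3: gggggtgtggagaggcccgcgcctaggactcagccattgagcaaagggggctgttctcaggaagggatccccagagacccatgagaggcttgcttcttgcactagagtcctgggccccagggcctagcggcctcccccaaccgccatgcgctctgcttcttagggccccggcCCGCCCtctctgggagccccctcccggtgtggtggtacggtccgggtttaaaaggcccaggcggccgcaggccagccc
This window of Efnb1 held 13 CpG pairs and 0 GC boxes, and that of Plxna3 12 CpG pairs and 1 GC box. Neither held the TATA box TATAAA on either strand.

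Neither X-linked member passed limma's adjusted threshold in any comparison. Efnb1 read 625, 622 and 533 in XmO, 453, 533 and 509 in XX_Paf, 583 and 578 in XpO and 530.4 and 519.8 in XX_InX. Every XpO array was above every XX_InX array, while in the Paf cross XmO 7 (532.8) lay just below XX_Paf 2 (533.0). The estimate for XO against XX over both crosses was higher in XO (log2 fold change 0.20, SE 0.11, 95% interval -0.03 to 0.43; limma adjusted p = 1.0). Within the crosses it was 0.25 (SE 0.13) for XmO against XX_Paf and 0.14 (SE 0.16) for XpO against XX_InX, and neither passed. Plxna3 read 1466, 1338 and 1282 in XmO, 1369.6, 1524 and 1849 in XX_Paf, 1497 and 1733 in XpO and 1505 and 1393 in XX_InX. These groups overlapped in both crosses, and the estimate over both was -0.03 (SE 0.10, 95% interval -0.25 to 0.20; limma adjusted p = 1.0). Per cross it was -0.21 for XmO against XX_Paf and 0.15 for XpO against XX_InX. For both genes the interval over both crosses lay within 2-fold in either direction. The sign for Plxna3 turned when XX_Paf 3 or XpO 15 was left out (0.03 in each case).

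**Figure D2:**
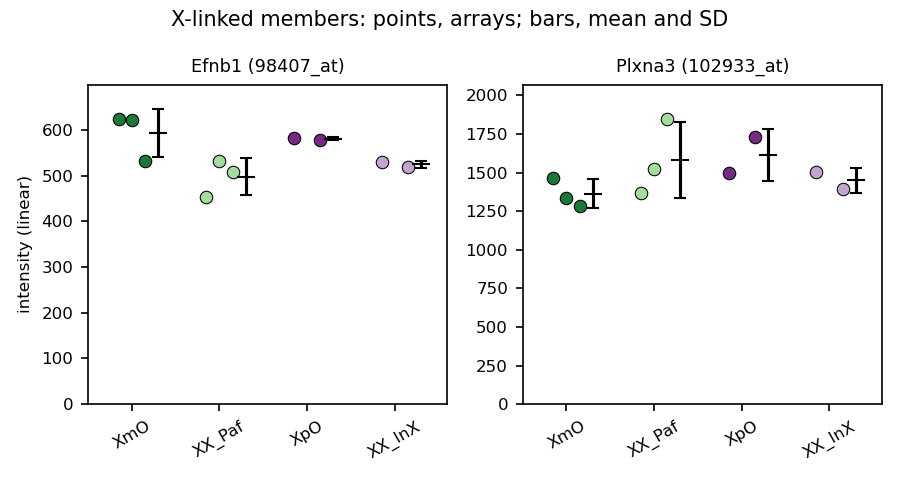
Deposited intensity (linear axis from 0) of the X-linked members Efnb1 and Plxna3 on each array, by group; points are arrays and bars give mean and SD (n = 3 for XmO and XX_Paf, n = 2 for XpO and XX_InX). Efnb1 lies between 453 and 625 and Plxna3 between 1282 and 1849, and neither is lower in both XO groups.

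Loss of 1 X chromosome over both crosses (XO against XX, each cross with equal weight) gave no called axon guidance gene. None of the 48 tested probe sets passed limma's threshold of an adjusted p under 0.05, where 0.0115% of all 8695 did, and none reached an unadjusted p under 0.05, where 2.60% of all did. No member separated XO from XX in the same direction in both crosses, against 0.851% of all probe sets. Estimates were higher in XO for 26 (50.1% of all probe sets were) and lower for 22, with a median of 0.024 beside 0.000 for all probe sets. By family, 6 of 6 ephrin and 9 of 10 Eph receptor probe sets had higher estimates in XO, with medians of 0.142 and 0.079; the ephrins include both probe sets of Efnb3, which share a gene. Of the semaphorins 9 of 18 did (median -0.011), of the plexins and neuropilins 2 of 8, of the netrin system 0 of 3 and of the Robos 0 of 2. With quantile normalization the semaphorins had 10 of 18 and all members 27 of 48; the other counts by family were the same with it and with median centring. For 44 of the 48 the 95% interval lay within 2-fold in either direction; the other 4 were Dcc, Robo3, Sema6a and 1 probe set of Sema4a. The smallest unadjusted p was that of Efnb1 (0.0836).

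**Figure D3:**
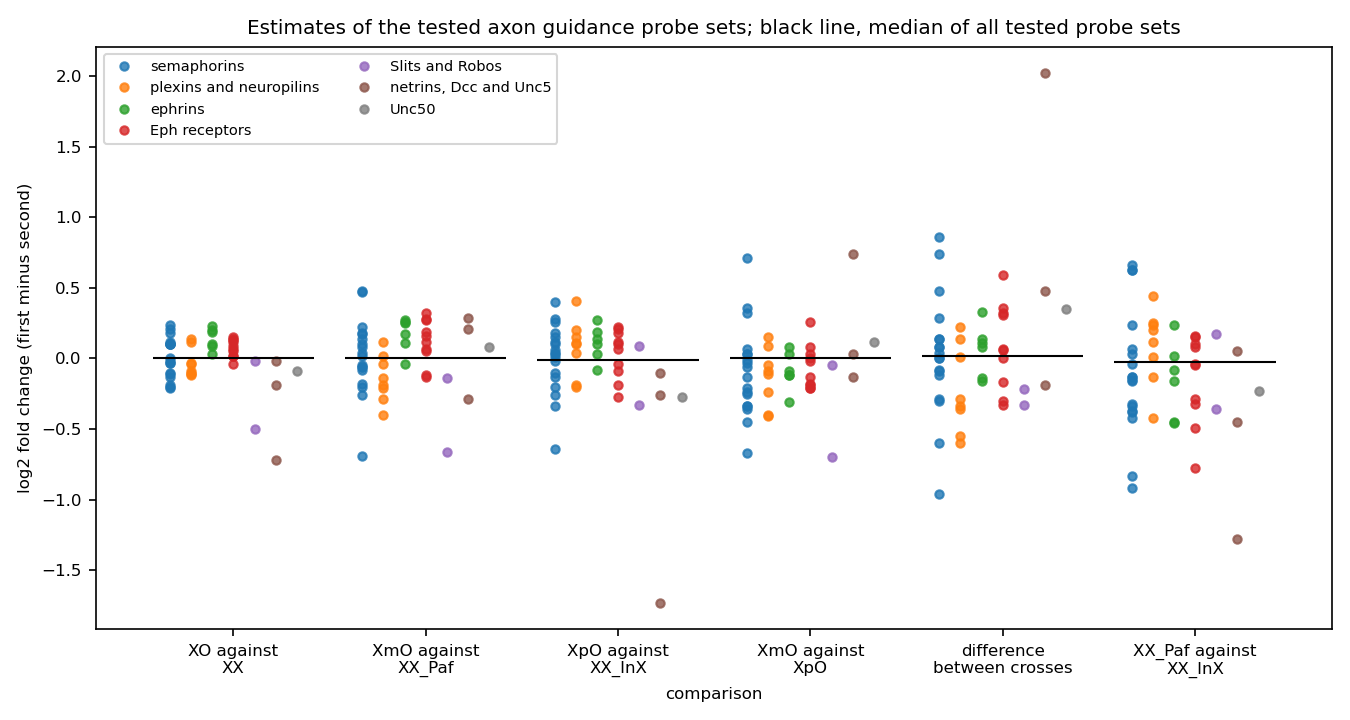
Log2 fold changes (first group minus second) of the 48 tested probe sets in each of 6 comparisons, coloured by family; the black line is the median of all 8695 tested probe sets. The points spread around the line in every comparison, those of XO against XX most narrowly apart from Robo3 and Dcc, and no point passed limma's adjusted threshold.

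In the Paf cross, XmO mice were set against XX_Paf females, which differ by the paternal X. Sema6d, a transmembrane semaphorin that binds plexin-A1, had a higher estimate in XmO, and Sema7a, a membrane-anchored semaphorin that promotes axon growth, a lower one, but neither passed. Sema6d read 541, 373 and 556 in XmO and 330.1, 359.8 and 347 in XX_Paf, so the groups did not overlap (log2 fold change 0.48, SE 0.17, limma adjusted p = 0.877). Sema7a read 304, 459 and 249.9 in XmO and 493, 510.5 and 576 in XX_Paf on probe set 97794_at, again without overlap (log2 fold change -0.69, SE 0.22, limma adjusted p = 0.877). Its estimate was -0.93 without XmO 2 and -0.49 without XmO 7. The gene's brighter probe set 93411_at read 571, 722 and 594 against 711, 405 and 725, which overlap, with an estimate of 0.08 (SE 0.20).

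Other members without overlap between XmO and XX_Paf differed less. Efna3, a ligand of EphA receptors, read 1659, 1888 and 2159 against 1575, 1627 and 1543 (log2 fold change 0.26, SE 0.13). Epha8, an EphA receptor, read 330.3, 356 and 339.9 against 220.4, 309.5 and 327 (0.28, and 0.10 without XX_Paf 1). Lower in XmO were Unc5c, the repulsive netrin receptor (498, 388 and 475 against 537, 619.8 and 501; -0.29), Plxnb2, a receptor of class 4 semaphorins (probe set 160311_at, 966, 893 and 894 against 1021, 986 and 1128; -0.19), and Robo1 (425, 423 and 411 against 498, 426 and 463; -0.14). These gaps were narrow: for Unc5c the highest XmO array was below the lowest XX_Paf array by under 3 units. In all, 7 of 48 members did not overlap (14.6%), against 13.9% of all probe sets, and 2 had an unadjusted p under 0.05 (4.17%), against 5.53%. None was called, against 0.0230%. Both shares lay near those of all probe sets. Estimates were higher in XmO for 28 of the 48, against 50.5% of all, and the median was 0.058, beside 0.002 for all.

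In the In(X) cross, XpO mice, which lack the maternal X, were set against XX_InX females. No member was called, where 0.0115% of all probe sets were, and none had an unadjusted p under 0.05, where 3.38% did. The smallest p was that of Plxna2, a co-receptor of neuropilins and receptor of class 6 semaphorins, which read 766 and 695 in XpO and 631 and 477 in XX_InX (log2 fold change 0.41, SE 0.19, limma adjusted p = 1.0); its estimate was 0.21 without XX_InX 19 and 0.61 without XX_InX 1. The secreted semaphorin Sema3f read 120.3 and 138 against 116 and 82.3, and Sema6b, a transmembrane semaphorin, 322 and 388 against 291 and 299. Epha7, a receptor of A ephrins, read 435 and 406 against 342 and 380.2 on its brighter probe set. The estimates of these 3 genes were 0.40, 0.26 and 0.22. For Sema3f XX_InX 19 was below that array's background (97.5), and without it the estimate was 0.15; for Sema6b it was 0.13 without XpO 18. Without overlap in the other direction were Dcc (96.6 and 31.5 against 143 and 234; -1.73, SE 0.95), its ligand Ntn1 (680.5 and 631 against 735 and 842; -0.26), Sema4a (892 and 908 against 1080.2 and 984; -0.20) and Robo3 (75.0 and 91.5 against 111 and 97.3; -0.33). The Dcc estimate was -0.92 without XpO 18, on which Dcc was below background, and -2.54 without XpO 15. Robo3 was above background on 5 of the 10 arrays and at or below it on XX_InX 19, so its difference is not a measured size; it was -0.19 without XpO 15. That of Ntn1 was -0.16 without XX_InX 19. Estimates were higher in XpO for 29 of the 48, against 47.9% of all. With 2 arrays a group, 10 of 48 members did not overlap (20.8%), against 23.4% of all probe sets. For 40 of the 48 the 95% interval lay within 2-fold in either direction, as it did in XmO against XX_Paf.

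XmO and XpO mice differ in which parent gave the only X, but also in the cross. Members leaned to lower values in XmO: 32 of 48 estimates were lower and 16 higher, where 50.1% of all probe sets were higher, with a median of -0.089 beside 0.000 for all probe sets; with median centring 19 of 48 were higher, in place of 16. None was called, where 0.0115% of all probe sets were. Unadjusted, 3 reached p under 0.05 (6.25%, against 4.83% of all): Efnb3, Sema6d and Sema6c, each lower in every XmO array than in either XpO array. Efnb3 encodes ephrin-B3, a midline ligand that keeps corticospinal axons from recrossing the spinal cord. It read 2798, 2523 and 2628 in XmO and 3049 and 3517 in XpO on probe set 103692_at (log2 fold change -0.31, SE 0.12, limma adjusted p = 0.969). On the second Efnb3 probe set, 94160_at, XmO and XpO overlapped, with an estimate of -0.09 (SE 0.26). Sema6d read 541, 373 and 556 against 593 and 732 (-0.45, SE 0.19). Sema6c, another transmembrane class 6 semaphorin, read 642, 661 and 535 against 697 and 855 (-0.34, SE 0.15). The estimate was -0.20 for Efnb3 and -0.19 for Sema6c without XpO 18, and -0.26 for Sema6d without XmO 2. Plxna1 read 456, 451 and 364 against 458 and 680.1, so that its lowest XpO array lay just above the highest XmO array (-0.41; -0.12 without XpO 18 and -0.69 without XpO 15).

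In the other direction, Sema3a, the secreted growth cone collapse factor, read 168, 172 and 178 in XmO and 166 and 115 in XpO (0.32; 0.06 without XpO 18 and 0.58 without XpO 15). Probe set 95387_f_at of Sema4b read 279.7, 269 and 293 against 213 and 224 (0.36). On the gene's probe sets 162133_at and 94637_at the groups overlapped, with estimates of -0.03 and -0.25. In all 12 of 48 members did not overlap (25.0%), against 17.4% of all probe sets, 10 of them lower in XmO (8.83% of all probe sets were separated in that direction). XpO 18 was the higher XpO array for each of Efnb3, Sema6d, Sema6c and Plxna1. The erythroid marker sum, mostly of the globins Hba-a1 and Hbb-b2, was higher on every XmO array than on either XpO array. Its part in these differences was not tested.

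The XX females of the 2 crosses are the background for that comparison, and here the most members (7 of 48) had an unadjusted p under 0.05. Sema6d, Efnb3, Efna3 and Ntn1 had the smallest p among members lower in XX_Paf, and Sema7a and Plxna2 among those higher, but no member passed limma's adjusted threshold, where 0.0805% of all probe sets did. Sema6d read 330.1, 359.8 and 347 in XX_Paf and 611 and 703 in XX_InX, or 346 ± 14.9 (SD, n = 3) against 657 ± 65.1 (SD, n = 2). All 3 XX_Paf arrays lay far under both XX_InX arrays (log2 fold change -0.92, SE 0.19, limma adjusted p = 0.132), and its adjusted p ranged from 0.0624 to 0.700 over the other settings tried. On probe set 103692_at Efnb3 read 2576, 2132 and 2388 against 3294 and 3130.2 (log2 fold change -0.45, SE 0.12, limma adjusted p = 0.185); on 94160_at the groups overlapped (log2 fold change -0.16, SE 0.26). Efna3 read 1575, 1627 and 1543 against 2224 and 2118 (log2 fold change -0.46, SE 0.15). Ntn1 read 536, 568 and 626 against 735 and 842 (log2 fold change -0.45, SE 0.15). Sema6c, which followed at 587, 622 and 594 against 742 and 822, had an unadjusted p of 0.0290; it is the next in rank and was named after its values were seen.

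Higher in XX_Paf was Sema7a on probe set 97794_at (493, 510.5 and 576 against 382 and 303; log2 fold change 0.63, SE 0.25, limma adjusted p = 0.301). On the brighter Sema7a probe set 93411_at these groups overlapped, with an estimate of the other sign (-0.16, SE 0.23). Plxna2 read 694, 823 and 719 against 631 and 477 (log2 fold change 0.44, 0.24 without XX_InX 19 and 0.64 without XX_InX 1). Plxnb2 was higher without overlap on both of its probe sets, at 1021, 986 and 1128 against 845 and 922 on 160311_at (0.24) and 718, 648 and 707 against 601 and 604 on 96464_at (0.20). The plexins and neuropilins were the 1 larger family with mostly higher estimates in XX_Paf: 6 of 8, and 5 of 8 with quantile normalization. Semaphorins had 6 of 18 and ephrins 2 of 6 (5 of 18 and 2 of 6 with quantile normalization).

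Over the whole array too, this comparison had the largest share of unadjusted p under 0.05 among the 6. Of the 48 members 7 (14.6%) had an unadjusted p under 0.05, against 13.8% of all probe sets, and 15 (31.2%) did not overlap, against 37.1%. Estimates were higher in XX_Paf for 20, against 47.3% of all, and the median of the members was -0.103, beside -0.022 for all. The erythroid sum, mostly globin, was higher on all 3 XX_Paf arrays than on either XX_InX array, and 3 sums were lower: that of the meningeal and fibroblast markers (11910 to 12758 against 15545 to 15837), of the endothelial markers (2955.5 to 3476 against 3489 to 3779) and of the microglia markers (2547 to 2638 against 2649 to 3071). Not every marker followed its sum. The erythroid Slc4a1 (82.5 in XX_Paf and 110.7 in XX_InX) and Epb42 (19.8 and 23.2) had lower means in XX_Paf. Epb42 was above background on 1 array only. The meningeal markers Col3a1, Dcn (958 and 928) and Ogn had higher means in XX_Paf. So had the endothelial Cldn5 (1341 and 1254), Cdh5, Kdr and Tek. Of the microglia markers, C1qa (542 and 533), Csf1r (287 and 285), Aif1, Itgam and Ptprc had higher means in XX_Paf. Aif1, Itgam and Ptprc were at or below background on all arrays. The other meningeal, endothelial and microglia markers had lower means, among them Igf2 (6692 against 9183), Eng (817 against 1113) and Tyrobp (145 against 212.5). The part of these sums in the values of the members was not tested.

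**Figure D4:**
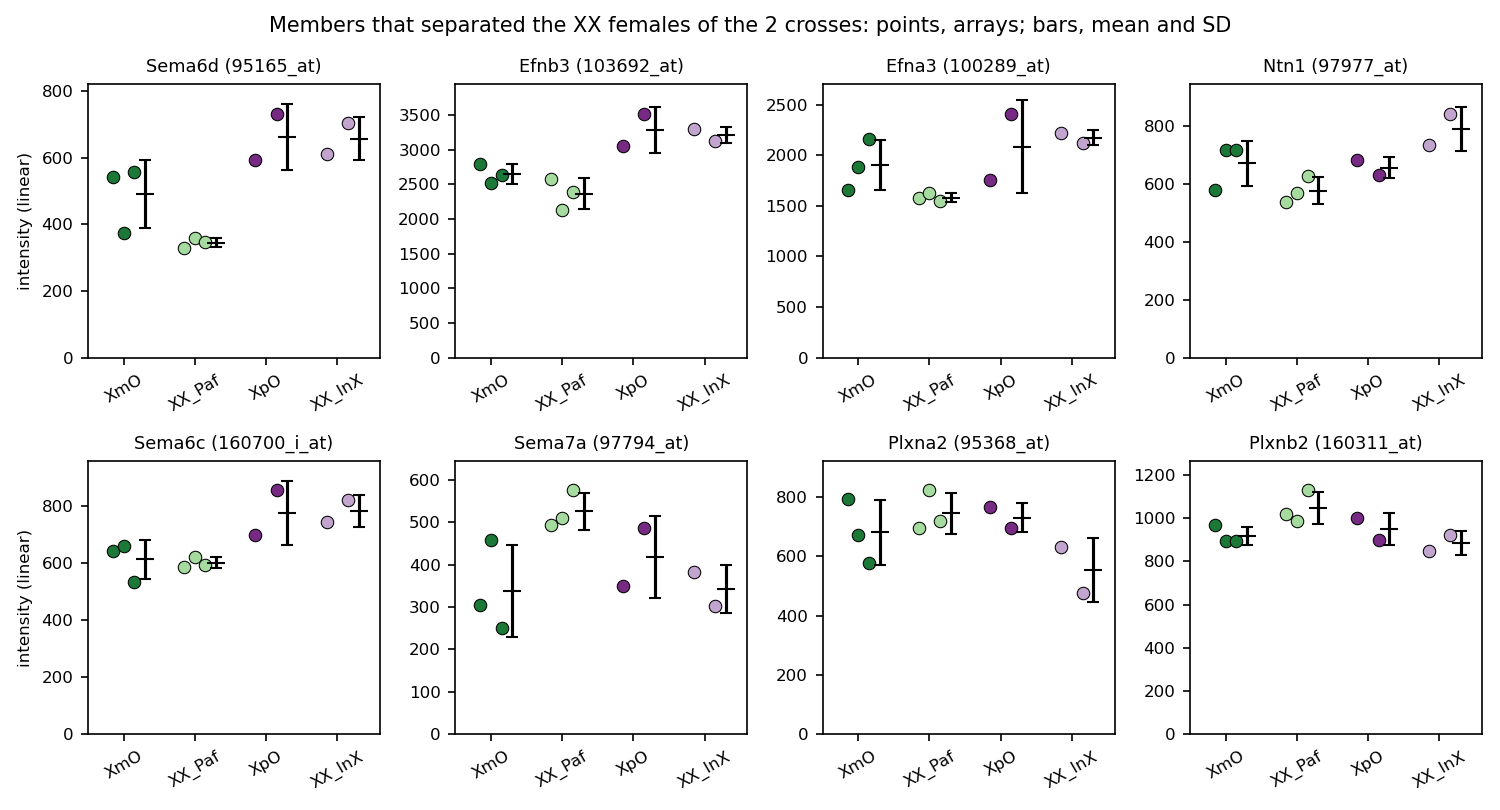
Deposited intensity (linear axis from 0) of 8 probe sets whose XX_Paf and XX_InX arrays did not overlap; points are arrays, bars mean and SD (n = 3 for XmO and XX_Paf, n = 2 for XpO and XX_InX). Sema6d, Efnb3 (103692_at), Efna3, Ntn1 and Sema6c are lower in XX_Paf than in XX_InX, and Sema7a (97794_at), Plxna2 and Plxnb2 (160311_at) higher. For Efnb3, Sema6c and Sema6d every XmO array is also lower than every XpO array.

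Across the 4 groups these genes had different orders of level. Sema6d was lowest in XX_Paf (346), next in XmO (490.2 ± 102 (SD, n = 3)), and about equal in XX_InX (657) and XpO (662 ± 98.4 (SD, n = 2)), whose arrays lie on either side of the XX_InX arrays. On its probe set 103692_at Efnb3 had the same order, with 2365 ± 223 (SD, n = 3) in XX_Paf, 2649.6 ± 139 (SD, n = 3) in XmO, 3212 ± 116 (SD, n = 2) in XX_InX and 3283 ± 331 (SD, n = 2) in XpO. XmO and XX_Paf overlapped there, and so did XpO and XX_InX. On 94160_at the mean of XX_InX (1228) was below that of XmO (1324). Ntn1 was lowest in XX_Paf (577 ± 45.4 (SD, n = 3)) and highest in XX_InX (788 ± 75.6 (SD, n = 2)), with both XO groups between, at 670.3 ± 78.6 (SD, n = 3) in XmO and 656 ± 34.8 (SD, n = 2) in XpO, which overlapped each other. Efna3 was lowest in XX_Paf as well, and its XpO arrays spanned the range from 1759.6 to 2409, covering both XX_InX arrays and 2 of the 3 XmO arrays.

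Promoter windows of Sema6d and Efna3 are shown because these are the members of smallest p in that comparison for which RefSeq's table held one; those of Efnb3 and Ntn1 were not used here. Each is the 250 bases upstream of the first of 2 listed starts, in GRCm38.p6, at chr2:124089719-124089968 on the plus strand for Sema6d and chr3:89322940-89323189 on the minus strand for Efna3, with the GC box GGGCGG in capitals. The end of the Sema6d window lies within the gene's annotated span, which begins at 124089943.
Sema6d: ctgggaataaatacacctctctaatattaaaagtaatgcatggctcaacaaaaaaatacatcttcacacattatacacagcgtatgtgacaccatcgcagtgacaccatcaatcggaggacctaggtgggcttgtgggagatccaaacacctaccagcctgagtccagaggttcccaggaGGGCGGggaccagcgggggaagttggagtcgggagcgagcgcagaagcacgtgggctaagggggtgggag
Efna3: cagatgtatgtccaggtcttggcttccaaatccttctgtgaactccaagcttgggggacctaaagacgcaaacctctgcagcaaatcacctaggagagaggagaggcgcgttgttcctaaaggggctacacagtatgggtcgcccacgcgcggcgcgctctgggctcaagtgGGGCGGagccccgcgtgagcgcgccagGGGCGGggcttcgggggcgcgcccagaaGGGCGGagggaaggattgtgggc
The Sema6d window held 1 GC box and 9 CpG pairs in 52.4% G and C, and that of Efna3 3 GC boxes and 19 CpG pairs in 63.6% G and C. Over the 38 member genes with a promoter in the table, 29 (76.3%) held a GC box on either strand in the same window, against 42.7% of 17492 protein-coding genes. The TATA box TATAAA was in 1 of 38 (2.6%), against 12.4%, and the E-box CANNTG, the site of basic helix-loop-helix factors, in 14 (36.8%), against 62.7%. The median G and C content was 64.6% for members and 55.2% for all, and the median number of CpG pairs 16 and 10. These are descriptions of letters in 1 window per gene; they do not show that a factor binds.

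The monosomy effects of the 2 crosses were then set against each other, as the XmO minus XX_Paf difference less the XpO minus XX_InX difference. No member was called, where 0.0230% of all probe sets were, and 3 (6.25%) had an unadjusted p under 0.05, against 5.91% of all. Those were Sema7a, Plxna2 and Ntn1. The count was 0 without XX_InX 19, and 1 without XmO 7, with median centring, without the variance trend and with a replicate block. On probe set 97794_at Sema7a had effects of -0.69 (Paf) and 0.28 (In(X)) (difference -0.96, SE 0.35, limma adjusted p = 0.832). Plxna2 had -0.14 and 0.41 (difference -0.55; -0.35 without XX_InX 19), and Ntn1 0.21 and -0.26 (difference 0.48). For all 3 the estimate between the XX groups was larger in size than that between the XO groups. Effects of opposite sign were found for 27 of 48 members (56.2%), against 57.7% of all probe sets. Next by p among members with opposite signs were Plxnb2 on probe set 96464_at (-0.40 and 0.20), the X-linked Plxna3 (-0.21 and 0.15), Sema3a (0.47 and -0.26) and Dcc (0.29 and -1.73). Their differences had limma adjusted p of 0.832, 0.860, 0.860 and 0.874. Unc50 also fell under the rule for naming, with a difference of 0.35 (0.07 without XpO 18 and 0.64 without XpO 15). The difference was above 0 for 26 of the 48, against 51.9% of all. For 30 of the 48 the 95% interval of this difference lay within 2-fold.

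For 12 of the 45 genes the array carries more than 1 probe set, and 8 of these genes had at least 2 tested. The probe sets of Efnb3 had estimates of the same sign in 6 of 6 comparisons, and so did those of Plxnb2, although these comparisons share arrays and are not independent. Epha5 had the same sign in 5 of 6, Sema4a in 4, Nrp1 and Sema7a in 3, the 3 probe sets of Sema4b in 2, and Ephb6 in 0. Ephb6, an EphB family member without kinase activity, read 489.5, 645 and 626 in XmO, 585, 599 and 735 in XX_Paf, 605 and 747 in XpO and 643 and 552 in XX_InX on probe set 102871_at. On 162371_r_at it read 365, 479.7 and 413 in XmO, 361, 434 and 358 in XX_Paf, 298 and 406 in XpO and 435 and 363 in XX_InX. The groups overlapped in both readings, and no estimate of either reached an unadjusted p under 0.05. The second Efnb3 probe set, 94160_at, read 1349, 1508 and 1116 in XmO, 779, 1184 and 1411 in XX_Paf, 1071 and 1822 in XpO and 1117 and 1339 in XX_InX; its XX_Paf and XX_InX arrays overlapped, unlike those of 103692_at. Nrp1, the receptor subunit that binds Sema3a, read 493 to 808 on 92773_at and 879 to 1256 on 95016_at, with overlap between every pair of groups on both.

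Sema4b was read by 3 probe sets: 289 to 489.8 on 162133_at, 102 to 209.5 on 94637_at and 175 to 580.1 on 95387_f_at, whose suffix marks probes shared within a sequence family. The single high reading of XX_Paf 1 on the last (580.1) had no counterpart on the others (362 and 124). Sema4a read 821 to 1080.2 on 94063_at and 32.3 to 139 on 161530_r_at, where 6 of the 10 arrays were at or below background. The dimmer probe sets of Epha4 (26.2 to 141), Epha5 (109 to 194), Epha7 (8.10 to 52.1) and Ntn1 (11.9 to 58.7), and both of Sema3b (2.20 to 19.1 and 18.4 to 47.3), lay near or below background on at least 1 array. The brighter Epha4 probe set, 104673_at, read 342, 335 and 330.4 in XmO, 317, 399.6 and 382 in XX_Paf, 407 and 354 in XpO and 299 and 359.9 in XX_InX, so every XmO array was below both XpO arrays while the other groups overlapped. The untested probe set 161866_at ran the other way: it read 74.1, 91.6 and 141 in XmO, above background on each array, and 26.9 and 49.4 in XpO, below it on both. Epha4 is a receptor for both ephrin classes and restrains corticospinal axons at the midline.

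**Figure D5:**
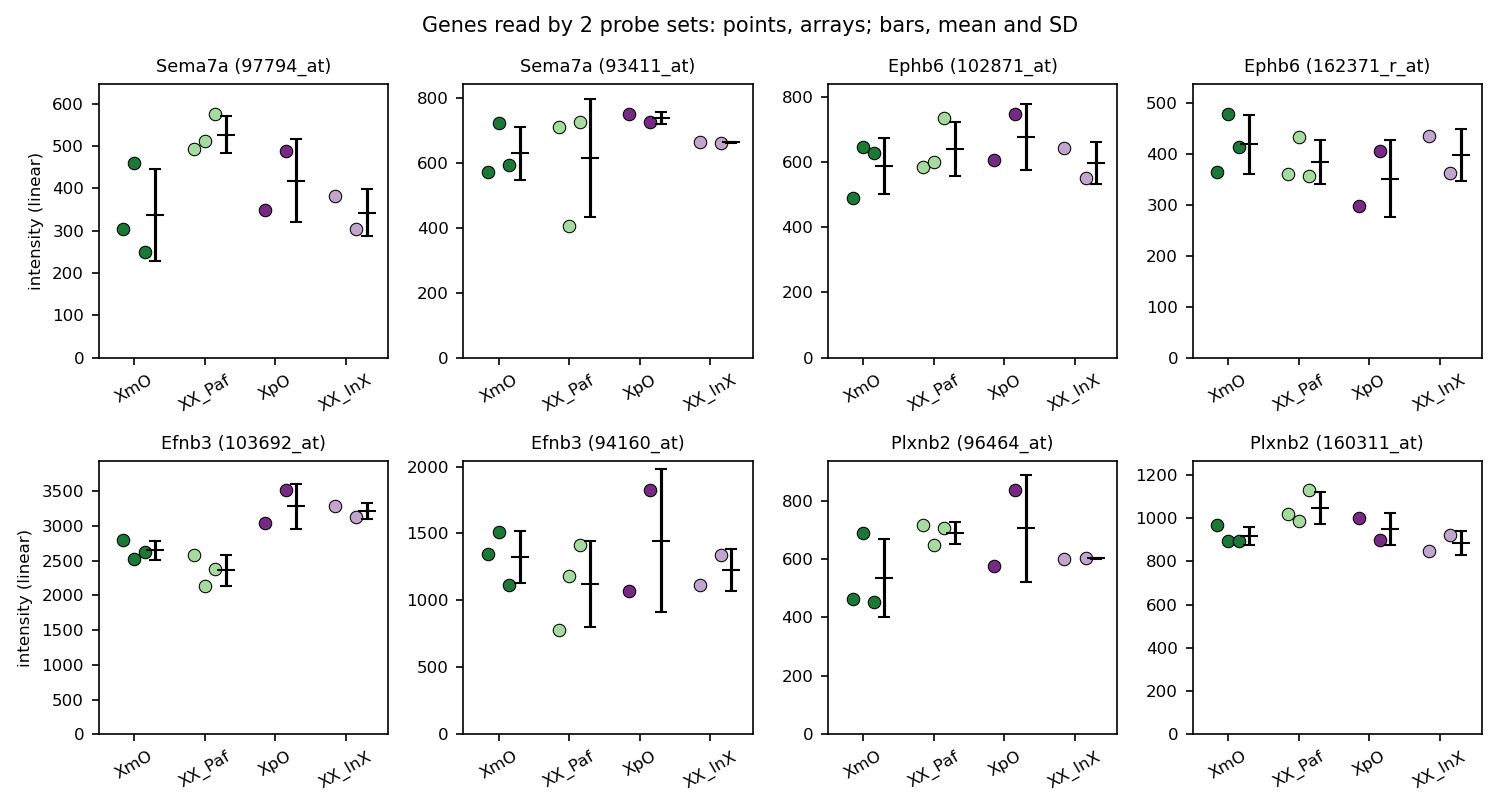
Deposited intensity (linear axis from 0) on each array of 4 genes read by 2 probe sets; points are arrays, bars mean and SD (n = 3 for XmO and XX_Paf, n = 2 for XpO and XX_InX). All 3 XX_Paf arrays are above every other array for Sema7a on 97794_at, but not on 93411_at, where XpO 15 reads 750.0; the group means of Ephb6 are in different orders on its pair of probe sets.

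Genes that act downstream of these receptors or beside them gave no calls either. A list of signal transducers (collapsin response mediator proteins, Pak and Lim kinases, cofilin and others) had 34 tested genes, a list of other guidance cues and receptors 20, and a list of axonal adhesion molecules 14. Each listed gene was read on its brightest probe set only. The share of all counts every tested probe set, dim and repeated ones included, so the shares are not like for like. No listed gene passed limma's adjusted threshold in any of the 6 comparisons. In XO against XX none of the 3 lists had a gene with an unadjusted p under 0.05. In XX_Paf against XX_InX 8 of 34 transducers (23.5%), 7 of 20 cues and receptors (35.0%) and 4 of 14 adhesion molecules (28.6%) did, beside 13.8% of all probe sets. These counts were 4, 3 and 1 with a replicate block, 4, 4 and 2 without XX_InX 1, 4, 4 and 4 without XX_Paf 2, 6, 3 and 3 without XX_Paf 1, and 5, 5 and 4 without XX_Paf 3. The medians of the lists there were -0.065, 0.092 and -0.053. N-cadherin (Cdh2), which axons use to adhere to cells and to each other, was at 2549 ± 38.5 in XX_Paf (SD, n = 3) and 1716 ± 25.5 in XX_InX (SD, n = 2; log2 fold change 0.57, SE 0.11, limma adjusted p = 0.108). The cell adhesion molecule Chl1, a relative of L1cam, was at 2150.4 ± 113 and 1255 ± 73.3 in the same groups (log2 fold change 0.78). The actin-severing cofilin gene Cfl1 was at 9869 ± 428 and 13771 ± 621 (log2 fold change -0.48, SE 0.10). Neurocan (Ncan), a proteoglycan of the matrix that axons grow through, was at 2049 ± 277 and 1188 ± 250 (log2 fold change 0.79, SE 0.22).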

How the data were processed

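Whole brain RNA of 10 samples was measured on Affymetrix MG-U74Av2 arrays. The deposited values are linear intensities, 1 for each probe set on each array; how the authors summarised probes is not stated. In these deposited intensities the mean after trimming 2% at each end was 500.3 on every array. Of 12488 probe sets 66 controls were left out; 10833 of the rest had 1 gene symbol in GEO's platform annotation, 396 several and 1193 none. Intensities under 15 (the 10th percentile) were raised to it, log2 was taken, and 8695 probe sets whose mean reached the 30th percentile were tested with limma 3.58.1 in R 4.3.3 (4 group means, intensity trend, 6 residual degrees of freedom, two-sided, Benjamini-Hochberg over all tested probe sets in each of 6 comparisons). The script was tested on simulated data. The number of arrays limits the precision. Alternatives were the scaling, floor, filter, variance trend, a replicate block and leaving out each array. The members and gene lists were chosen with earlier results of these data known. Per-array values are given for up to 4 members per direction and comparison with the smallest p and no overlap, X-linked members, genes with several probe sets, and the steadiest and most variable member of each family. Promoters are RefSeq's, GRCm38.p6. Pituitary markers (3 of 7 above background on all arrays) were checked too.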

Additional observations from a re-analysis of the deposited data

How the results depend on the processing

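No axon guidance probe set and no gene of the 3 other lists passed limma's adjusted threshold under any of 18 other settings, so each count stayed at 0 (leaving out each array in turn included). Of 930 alternative estimates of the named genes 927 kept their direction and side of the threshold. The exceptions were Plxna3 in XO against XX, at 0.03 without XX_Paf 3, 0.03 without XpO 15 and 0.00 without XX_InX 1 (-0.08 to 0.03 over all arrays left out in turn). Counts at an unadjusted p under 0.05 moved more: in XmO against XpO from 3 to 9 without XpO 15 and to 1 without the variance trend, in XmO against XX_Paf from 2 to 6 with no filter, and from 0 to 3 without XpO 15 in both XO against XX and XpO against XX_InX. The smallest limma adjusted p of any member was 0.0624, for Sema6d in XX_Paf against XX_InX without XmO 2. XmO and XX_Paf share the replicate numbers 1 and 2, but the deviations of same-numbered arrays correlated at -0.0123 and -0.0415, so the numbers were not taken to pair them. With the replicate block 0 members were called, and in XX_Paf against XX_InX the members at an unadjusted p under 0.05 went from 7 to 3. The block set only replicates 1 and 2 of the Paf cross apart, and all other arrays shared a common level. It is thus partly confounded with the cross, and XX_Paf against XX_InX then rests on less of the XX_Paf data. Counts of the difference between crosses and of the lists are given with their results. Probe sets near background have only a bound on their level.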

Other observations

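The low readings of some dim members fell on the same arrays, and those of others did not. These genes were chosen after their values were seen, and no test was made. XmO 2 was the lowest XmO array for Dcc (29.0), Sema3e (24.1), Ephb3 (27.5), Sema6a (104) and Sema3c (87.2). XpO 18 was the lower XpO array for Dcc (31.5), Sema3e (28.9), Sema6a (50.9) and Sema3c (93.9), but the higher one for Ephb3 (106). Against this, XmO 1 was the lowest XmO array for Robo3 (30.2), Sema4a on 161530_r_at (32.3), Efna1 (17.1) and Efna5 (6.3). It was also the lowest for the dimmer probe sets of Epha7 (11.4) and Epha4 (74.1). XpO 15 was the lower XpO array for Sema4a on 161530_r_at (34.8), Robo3 (75.0) and Sema5a (86.2).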
